A study of Mus musculus with 27 samples.

Results

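The genes described here are 10 markers of newborn and maturing neurons, followed through 4 stages of mouse embryonic stem cell culture with and without an intact Zfp512b gene. They were chosen by name, as the rows of Tubb3, Dcx, Map2, Gap43, Stmn2, Elavl3, Elavl4, Nefl, Nefm and Sox11 among the 25209 genes that each of 8 tables lists, and all 10 were found in all 8 tables. RNA was sequenced from V6.5 cells, a mouse embryonic stem cell line, in 27 libraries of WT cells and of the Zfp512b knockout clones KO #4 and KO #8. Each genotype had 3 libraries in the naive state (Day 0) and 2 each as primed cells (Day 2), in cardiomyocyte (CM) cultures (Day 7.5) and in neural progenitor cell (NPC) cultures (Day 10). A knockout is 1 clone, in which a cassette of transcriptional terminators had been placed behind exon 3 of Zfp512b and selected with mCherry or puromycin. The WT cells had not gone through this editing, so the loss of Zfp512b, the editing and the history of a clone cannot be told apart. The labels do not say which libraries came from separate cultures, so the p-values given here measure the spread between these libraries, which may be technical.

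A cell that becomes a neuron rebuilds its cytoskeleton and changes how its RNAs are processed. Sox11 is a transcription factor that is high in cells leaving the progenitor state. Tubb3 encodes a neuron-specific beta-tubulin, Dcx and Map2 encode proteins that bind and stabilise microtubules, and Stmn2 encodes a protein that binds tubulin dimers in growing axons. Gap43 is a membrane protein of growth cones, Elavl3 and Elavl4 are neuronal RNA-binding proteins of the Hu family, and Nefl and Nefm are the light and medium chains of neurofilaments, which appear as axons mature. In a bulk culture, fewer cells of a type and less RNA per cell cannot be told apart, so a level below is that of the whole culture.

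In mm9, the build of the authors' alignment, 9 of the 10 genes have several exons and Sox11 has 1. Tubb3 lies on chromosome 8 (125935324 to 125945915, plus strand), Dcx on chromosome X (140290385 to 140367854, minus), Map2 on chromosome 1 (66221847 to 66489157, plus) and Gap43 on chromosome 16 (42248555 to 42340764, minus). Stmn2 lies on chromosome 3 (8509527 to 8561604, plus), Elavl3 on chromosome 9 (21819449 to 21856467, minus), Elavl4 on chromosome 4 (109876327 to 110024514, minus) and Sox11 on chromosome 12 (28025562 to 28027574, minus). The neurofilament genes Nefl (68701920 to 68707152, plus) and Nefm (68700647 to 68742903, minus) overlap on chromosome 14, with 1108 exon bases in common in this annotation. Whether the annotation of the authors' counting holds this overlap, and whether the counting used strand, is not given in the sources used here. Any reads of these bases thus cannot be assigned to one or the other.

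Promoters of 6 of the 10 genes, in 10 windows of 250 bases before an annotated start, were present in the RefSeq sequences (GRCm38.p6), for Tubb3, Dcx, Map2, Elavl3, Elavl4 and Sox11. Those of Tubb3, Map2 and Elavl3 are shown, 5′ to 3′ in the direction of the gene, because these are the genes with a window that were called in opposite directions in the 2 clones in CM cultures. The capitals mark the CCAAT box, read on either strand, which the window of Map2 does not hold.
Tubb3, chr8:123411303-123411552, plus strand: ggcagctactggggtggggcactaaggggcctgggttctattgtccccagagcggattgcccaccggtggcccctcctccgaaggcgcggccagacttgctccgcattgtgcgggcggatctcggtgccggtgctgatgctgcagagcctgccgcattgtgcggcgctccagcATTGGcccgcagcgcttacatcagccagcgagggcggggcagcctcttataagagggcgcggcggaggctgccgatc
Map2, chr1:66175079-66175328, plus strand: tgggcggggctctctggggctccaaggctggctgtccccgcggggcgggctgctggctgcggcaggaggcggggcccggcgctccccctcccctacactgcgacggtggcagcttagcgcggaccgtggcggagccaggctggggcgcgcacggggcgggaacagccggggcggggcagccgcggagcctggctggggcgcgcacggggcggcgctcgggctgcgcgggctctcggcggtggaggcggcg
Elavl3, chr9:22052024-22052273, minus strand: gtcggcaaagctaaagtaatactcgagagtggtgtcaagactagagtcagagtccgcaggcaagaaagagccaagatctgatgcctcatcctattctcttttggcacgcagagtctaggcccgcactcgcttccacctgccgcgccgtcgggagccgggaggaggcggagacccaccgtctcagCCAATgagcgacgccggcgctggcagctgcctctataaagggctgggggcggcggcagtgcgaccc
A CCAAT box was present in a window of Tubb3, Dcx, Elavl3, Elavl4 and Sox11. It was in 7 of the 10 windows, and in 33.8% of all 32851 windows. The E-box CANNTG, the core letters bound by proneural factors, was present at Elavl3, Elavl4 and Sox11. It was in 5 of the 10 windows, and in 66.2% of all windows. The letters TTCAGCACC of the RE1 element, the site of the repressor REST, were in no window of these genes, and in 0.301% of all. The other part of that element, GGACAG, was found at Map2 and in 18.7% of all windows. All motifs were read on both strands. A match is a description of letters, not of a bound site.

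The deposited tables give 1 base mean per gene and comparison, not a value per library, together with the authors' own comparisons, which were not used. The count of each library was solved from these base means, as described under the processing of the data. Libraries are numbered 1, 2 and 3 within a group by decreasing size factor, and the numbers are not those of the sample labels. Counts were recovered for 3 of the 10 genes in naive cells, 7 in primed cells, 6 in NPC cultures and 9 in CM cultures, and the remaining ones were too highly expressed for 1 solution to be singled out. Most of these counts were the only solution, while naive Elavl4 and NPC Elavl3 had 2 and NPC Nefl and CM Gap43 had 3. CM Tubb3 and Stmn2 had 12 and 16, and the solution with nearly all of the weight was taken. A solution weighed more the closer the libraries of a group lay to each other. For genes with several solutions, the spread between libraries and the p-values are therefore not independent of this choice. The libraries held 15.1 to 39.7 megareads (M) on genes, 34.2 M or more in naive cells and at most 19.3 M at the other stages. The 12 pluripotency markers of the lists used here were all above the level at which counts could be solved in naive cells. Zfp512b itself, the targeted gene, was recovered in primed and CM libraries. In primed cells it had 929 and 977 normalized counts in WT, 191 and 219 in KO #4 and 184 and 154 in KO #8. In CM cultures it had 1118 and 1060 in WT, 184 and 209 in KO #4 and 155 and 173 in KO #8. The targeted gene was thus lower in every recovered knockout library than in every WT library, at log2 differences between -2.21 and -2.73.

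Per kilobase of exon, Sox11 had the highest level of the 10 in the KO #4 tables of NPC (3848 base mean per kilobase) and CM cultures (3410), and Stmn2 that of naive (4474) and primed cells (2685). Tubb3 was among the 3 highest at every stage, with a base mean per kilobase of 2259 in naive, 574 in primed, 713 in NPC and 845 in CM cultures. The stages were normalized separately and the naive libraries were the deepest, so these values compare genes within a stage, not stages. Dcx was last in naive, primed and CM tables, and Elavl4 in NPC, at 41.8. These levels are averages over the WT and KO #4 libraries of a stage and carry no spread, so the order of genes with near values, such as Sox11 (585) and Tubb3 (574) in primed cells, is not resolved. Stmn2, Tubb3 and Gap43 were thus measured at high levels in naive stem cells, before any neural culture, while Dcx had no read in any of the 9 naive libraries. A count of 0 there allows up to 3 reads per library, or at most 0.0756 to 0.0877 reads per megaread (RPM).

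In NPC cultures all 6 genes with counts had higher values in both clones than in WT, and 2 rose in KO #4 and 4 in KO #8 by the limma test. Gap43 had 113 and 125 normalized counts in the WT libraries, 291 and 368 in KO #4 and 302 and 514 in KO #8. Elavl4 had 108 and 100.1 in WT, 270.3 and 423 in KO #4 and 295 and 689 in KO #8. Both genes were higher in every knockout library than in every WT library, and both rose in both clones. Gap43 rose by 1.45 ± 0.24 in KO #4 and 1.72 ± 0.24 in KO #8 (log2 of normalized count + 1, standard error, limma adjusted p = 0.0096 and 0.00376). Elavl4 rose by 1.69 ± 0.35 and 2.11 ± 0.35 (limma adjusted p = 0.0222 and 0.00699), the largest differences of the 6.

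Elavl3, the other Hu protein, had 296 and 334 normalized counts in WT, 660.4 and 798 in KO #4 and 620.2 and 1511 in KO #8. It rose in KO #8 by 1.62 ± 0.32 (limma adjusted p = 0.0135), and the difference of 1.20 ± 0.32 in KO #4 did not pass the threshold (adjusted p = 0.0568). The medium neurofilament chain Nefm had 261 and 229 in WT, 335 and 429.8 in KO #4 and 419 and 901 in KO #8. Its values were again higher in all knockout libraries, with a rise of 1.33 ± 0.30 in KO #8 (limma adjusted p = 0.0222) and a difference of 0.63 ± 0.30 in KO #4 (adjusted p = 0.275). The light chain Nefl had 728 and 710.4 in WT, 734 and 859 in KO #4 and 822 and 1371 in KO #8. Stmn2 had 304 and 319 in WT, 379 and 491 in KO #4 and 416 and 901 in KO #8. Neither Nefl nor Stmn2 passed the test in either clone, although their groups did not overlap, with Nefl at 0.14 ± 0.20 and 0.56 ± 0.20 and Stmn2 at 0.47 ± 0.30 and 0.97 ± 0.30 in KO #4 and KO #8.

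Of all 9590 genes tested in NPC cultures, 7.42% were called in KO #4 and 11.5% in KO #8, 4.55% and 7.37% as higher. The median difference of the 6 genes was 0.92 in KO #4 and 1.47 in KO #8, against -0.01 and -0.00 over all genes tested. All 6 lay above WT without overlap in both clones, where 26.8% of all tested genes did so in KO #4 and 27.4% in KO #8. The 2 comparisons share their WT libraries. Gap43 and Elavl4 were called higher in both, as were 3.51% of all tested genes. No gene of the 6 differed between the clones by the limma test (1.22% of all tested genes did), 1 of them had an unadjusted p under 0.05, and limma voom also called 0.

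**Figure D1:**
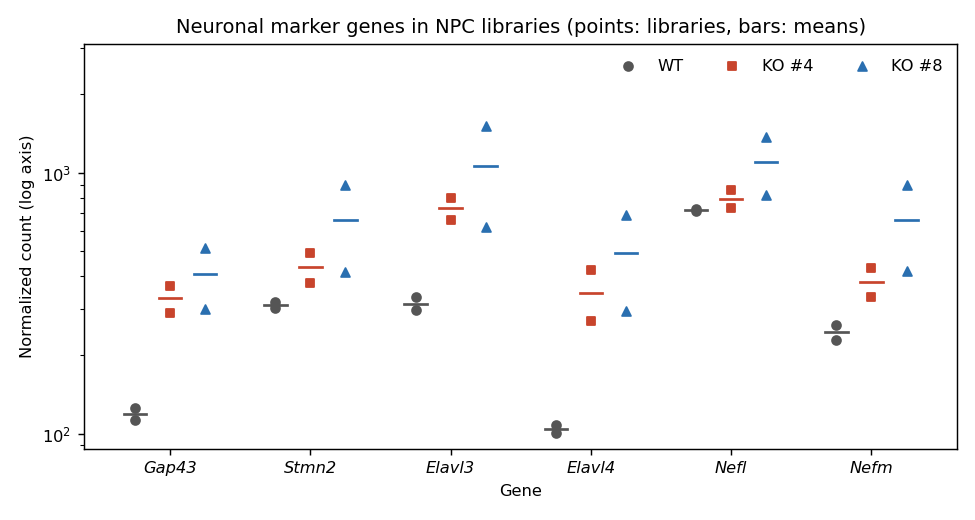
Normalized counts (log axis) of the 6 marker genes recovered in NPC libraries, with 1 point per library of WT (circles), KO #4 (squares) and KO #8 (triangles) and a bar at the mean of each group of 2. All knockout points lie above the WT points of the same gene, and the upper KO #8 point is library 2 throughout.

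The KO #8 libraries differed from each other more than those of any other group of this stage. KO #8 library 2 was above library 1 for 6 of 6 marker genes, by a median log2 difference of 1.11. It was also above library 1 for 43 of 49 other neuronal genes (median 0.98), 8 of 8 neural progenitor markers (1.19) and 11 of 11 pluripotency markers (0.82), while cardiac muscle markers had a median of -0.03. Over all genes, 12.4% differed by over 1.5-fold between the KO #8 libraries, against 2.03% in WT and 1.02% in KO #4. Without KO #8 library 2, the KO #8 differences from WT were 0.98 for Elavl3, 1.50 for Elavl4, 1.34 for Gap43 and 0.77 for Nefm. Stmn2 and Nefl stood at 0.42 and 0.19. Without KO #8 library 1, these 6 differences were 2.26, 2.72, 2.1, 1.88, 1.53 and 0.93. The difference of KO #8 from KO #4 ran from -0.23 (Elavl3) to 0.14 (Nefm) without library 2. Without library 1 it ran from 0.65 (Gap43) to 1.25 (Nefm). In both fits more of all tested genes passed the threshold than with all libraries. The single KO #8 library was then assumed to vary like the other groups. The size of the KO #8 differences, and whether the clones differ from each other, thus depended on which KO #8 library was used.

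The other calls in NPC cultures rested on few libraries as well. Without any 1 of the WT or KO #4 libraries, the marker genes lost their KO #4 calls. Without WT library 1 or WT library 2, all or most of their KO #8 calls were lost too. The differences kept their sign. Such fits left 1 library in a group, and most calls over all tested genes of the same comparison were lost as well. The losses are thus no result about the marker genes in particular. With limma voom, 0 marker genes were called in KO #4 and 1 in KO #8, and a fit of KO #4 and WT alone called 5.

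Among 64 other neuronal genes, the same direction prevailed in NPC cultures. This list was chosen, like the other lists used here, with earlier results of these data known. Its direction at any stage is thus no independent support for the marker genes. Of the 49 tested, 14 rose and 1 fell in KO #4, and 27 rose and 1 fell in KO #8, and the 15 calls of KO #4 were also made in KO #8 with the same sign. Over all tested genes 3.51% rose and 1.50% fell in both clones. The median difference of the 49 was 0.85 in KO #4 and 1.15 in KO #8. Neurod4, a proneural transcription factor, rose by 1.90 ± 0.41 and 2.17 ± 0.41 (limma adjusted p = 0.0244 and 0.0104 in KO #4 and KO #8). Myt1, a zinc finger protein of early neurons, rose by 1.74 ± 0.31 and 2.21 ± 0.31, and Nhlh1, a basic helix-loop-helix factor of newborn neurons, by 1.71 ± 0.42 and 2.09 ± 0.42. Dclk1, a microtubule-binding kinase related to Dcx, fell, with differences of -0.95 and -1.28, from a mean of 1272 normalized counts in WT to 659 and 525. Proneural factors were thus among the shared rises, and Dclk1 was the only shared fall.

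Of the markers of other cells, most tested ones of neural progenitors rose with these genes and the other lists did not follow one direction. The summed level of 8 of 14 neural progenitor markers, those with counts, was 1784 to 1973 in WT, 2838 to 3463 in KO #4 and 2340 to 4973 in KO #8, and 5 rose and 1 fell in KO #4 and 6 rose and 1 fell in KO #8. The sum of 11 of 12 pluripotency markers was 2335 to 3606 in WT, 2303 to 2360 in KO #4 and 3507 to 6199 in KO #8, with no gene called in either clone (limma; 0 also between the clones). The sum of 11 of 11 cardiac muscle markers was 424 to 523 in WT, 283 to 285 in KO #4 and 352 to 365 in KO #8, with 2 of 9 tested genes lower in KO #4, and 1 higher and 1 lower in KO #8. The sum of 10 of 10 glial and neural crest markers was 1423 to 1567 in WT, 879 to 914 in KO #4 and 1169 to 1805 in KO #8, with 1 of 6 tested genes higher and 1 lower in KO #4, and 2 and 1 in KO #8. That of 6 of 8 endoderm markers was 1003 to 1415, 743 to 792 and 1020 to 1128, with 1 gene lower in KO #4. Postn, the 1 gene with counts of 9 mesenchyme and endothelial markers, had 239.5 to 254.5, 125 to 133 and 97.0 to 166.5 and fell in KO #8. None of these 6 lists had a marker with counts at 0 in all libraries. Their part in the levels of the neuronal genes was not tested.

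In CM cultures the clones moved apart. Of the 9 genes with counts, 8 rose and none fell in KO #4, and none rose and 6 fell in KO #8 by the limma test. Tubb3 had 536 and 720.2 normalized counts in the WT libraries, 2488 and 2572 in KO #4 and 303 and 343 in KO #8. The 3 groups did not overlap, with KO #4 highest and KO #8 lowest, a rise of 2.02 ± 0.13 in KO #4 (limma adjusted p = 4.59e-07) and a fall of 0.94 ± 0.13 in KO #8 (0.000574). Map2 had 94.2 and 97.5 in WT, 349.9 and 279.7 in KO #4 and 43.2 and 58.4 in KO #8, with differences of 1.70 ± 0.22 and -0.92 ± 0.22 (limma adjusted p = 9.34e-05 and 0.0131). The microtubule genes Tubb3 and Map2 thus moved in opposite directions in the clones.

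Dcx, the third of this group, had 48.5 and 63.1 normalized counts in WT, 38.0 and 23.1 in KO #4 and 13.1 and 10.2 in KO #8. Unlike Tubb3 and Map2 it was lower than WT in both clones, by 2.16 ± 0.40 in KO #8, where it fell (limma adjusted p = 0.00331), and at -0.88 ± 0.40 in KO #4, where it did not pass the test (0.0844). Stmn2 had 477 and 585 in WT, 2370 and 2397 in KO #4 and 555 and 530.5 in KO #8. Its KO #8 libraries lay within the WT range at 0.04 ± 0.10, while KO #4 stood far above it. The rise in KO #4 was 2.17 ± 0.10 (limma adjusted p = 4.31e-08), the largest of the 9. The counts of Stmn2 were chosen among 16 solutions and those of Tubb3 among 12, with weight on libraries close within a group. Their standard errors and p-values thus depend in part on this choice. Gap43, the growth cone protein, had 746 and 714 in WT, 926 and 988 in KO #4 and 489 and 473 in KO #8. Its differences were 0.39 ± 0.08 in KO #4, the smallest of the rises, and -0.60 ± 0.08 in KO #8 (limma adjusted p = 0.0028 and 0.000752).

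The RNA-binding proteins were low in these cultures. Elavl3 had 33.6 and 31.5 normalized counts in WT, 106 and 90.4 in KO #4 and 9.39 and 17.4 in KO #8, with a rise of 1.56 ± 0.37 and a fall of 1.28 ± 0.37 (limma adjusted p = 0.00455 and 0.0297). Elavl4 had 21.4 and 28.6 in WT, 50.3 and 62.0 in KO #4 and 34.7 and 24.6 in KO #8. It rose by 1.14 ± 0.35 in KO #4 (limma adjusted p = 0.0184), and KO #8 overlapped WT at 0.23 ± 0.35.

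Both neurofilament chains were raised in KO #4. Nefl had 268 and 282 normalized counts in WT, 585 and 617 in KO #4 and 96.7 and 129 in KO #8, and Nefm had 78.3 and 89.7 in WT, 332 and 368 in KO #4 and 44.1 and 67.6 in KO #8. The groups did not overlap for either gene. Nefl was called in both clones, at 1.12 ± 0.16 in KO #4 and -1.29 ± 0.16 in KO #8 (limma adjusted p = 0.000147 and 0.000344). Nefm rose by 2.05 ± 0.23 in KO #4 (limma adjusted p = 3.63e-05), and its difference of -0.61 ± 0.23 in KO #8 did not pass the test (adjusted p = 0.0865).

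**Figure D2:**
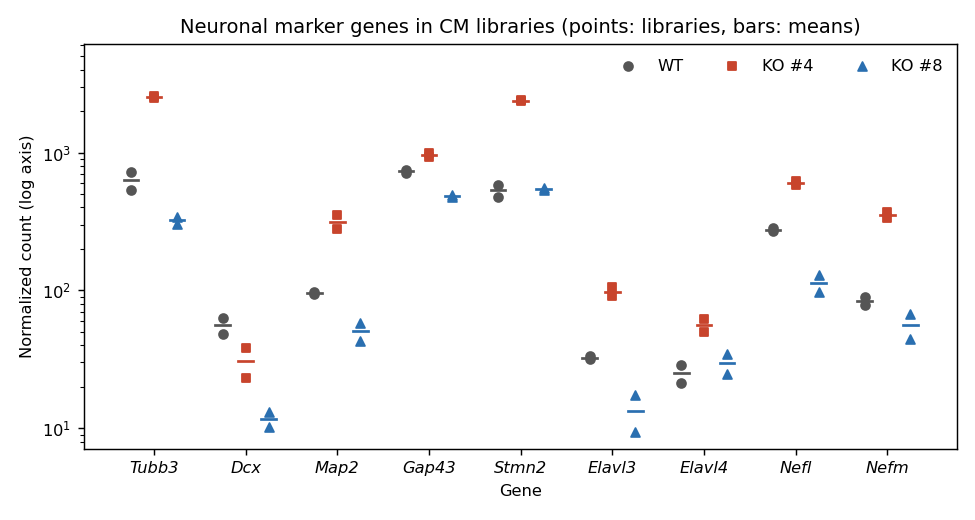
Normalized counts (log axis) of the 9 marker genes recovered in CM libraries, with 1 point per library of WT (circles), KO #4 (squares) and KO #8 (triangles) and a bar at the mean of each group of 2. KO #4 is above WT for every gene but Dcx, and KO #8 is below KO #4 for all 9.

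These counts stand in cultures in which many genes differed. Of 9640 genes tested, 55.0% were called in KO #4 (23.8% higher and 31.2% lower) and 24.0% in KO #8 (11.3% higher and 12.8% lower). The median difference of the 9 genes was 1.56 in KO #4 and -0.92 in KO #8, against -0.06 and -0.01 over all genes tested. Compared directly, all 9 were lower in KO #8 than in KO #4 by the limma test, at a median of -2.42 (0.04 over all genes), where 54.0% of all tested genes were called. Those lower in KO #8 made up 23.6% of all tested genes. The log2 differences between the clones ran from -0.91 (Elavl4, limma adjusted p = 0.0492) to -2.97 (Tubb3, 3.4e-08). The 9 genes did not overlap between the clones, as 37.1% of all tested genes did not in this direction.

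No single library decided these counts, which were between 7 and 8 in KO #4, between 4 and 7 in KO #8 and between 7 and 9 between the clones when each library was left out in turn. Tubb3, Gap43, Nefl and Dcx kept their call in KO #8 in all of these fits, while Map2 and Elavl3 each lost it without WT library 1, WT library 2 or KO #8 library 1, which left 4 calls. Tubb3 and Stmn2 had base means above 1000 in the KO #4 table and were accepted under the stricter rule for such genes, which mostly passes genes whose groups differ. With only the genes that have exactly 1 solution, an alternative chosen after seeing the data, 5 of 6 tested genes remained called in KO #4 and 5 between the clones.

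Tubb3 lies on chromosome 8, whose genes had a median above that of the other chromosomes in both clones at every stage. Between 28.8% (naive KO #4) and 54.8% (CM KO #8) of the chromosome 8 genes tested were called higher. Their median log2 difference in CM cultures was 0.47 in KO #4 and 0.51 in KO #8 (447 genes), against -0.08 and -0.03 for genes of the other chromosomes. The Tubb3 differences of 2.02 and -0.94 were thus 1.56 above and 1.45 below the medians of their chromosome. At the other stages the chromosome 8 medians lay between 0.41 and 0.61. Their part in the level of Tubb3 was not tested.

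The markers of the cultured cell types differed strongly between the clones as well. The summed level of 4 of 11 cardiac muscle markers, those with counts, was 3668 to 4164 normalized counts in WT, 82.1 to 85.2 in KO #4 and 3175 to 3359 in KO #8. The sum of 7 of 14 neural progenitor markers was 828 to 916 in WT, 6426 to 6470 in KO #4 and 1266 to 1465 in KO #8, and that of the 9 neuronal genes was 2304 to 2612, 7246 to 7399 and 1589 to 1654. The KO #4 cultures labelled CM thus held little of the recovered cardiac markers (4 of 4 fell in KO #4 and 1 of 4 in KO #8). They had the highest sums of the neural progenitor markers and of the 9 neuronal genes, while the other neuronal genes are described below. The sum of 10 of 12 pluripotency markers was 4293 to 4352 in WT, 5036 to 7286 in KO #4 and 2809 to 2951 in KO #8, and that of 4 of 8 endoderm markers was 1517 to 2979, 137 to 293 and 3582 to 3622. Glial and neural crest markers, 10 of 10, summed to 1630 to 1797 in WT, 1278 to 1358 in KO #4 and 953 to 998.5 in KO #8, with 5 of 8 tested genes higher and 2 lower in KO #4, and 1 and 3 in KO #8. Twist1, the 1 gene with counts of 9 mesenchyme and endothelial markers, had 940 to 1225 in WT, 117 to 147 in KO #4 and 462 to 507 in KO #8 and fell in both clones. No marker with counts in these 6 lists was at 0 in all libraries. For 7 cardiac markers without counts, Tnnt2, Tnni1, Myh6, Myh7, Myl7, Actc1 and Ttn, only the clones could be set side by side. All 7 were higher in KO #8 than in KO #4, 3 of them at least 1.5-fold. So were the 8 mesenchyme and endothelial markers without counts, 7 of them at least 1.5-fold. The part of these cells in the levels of the neuronal genes was not tested.

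**Figure D3:**
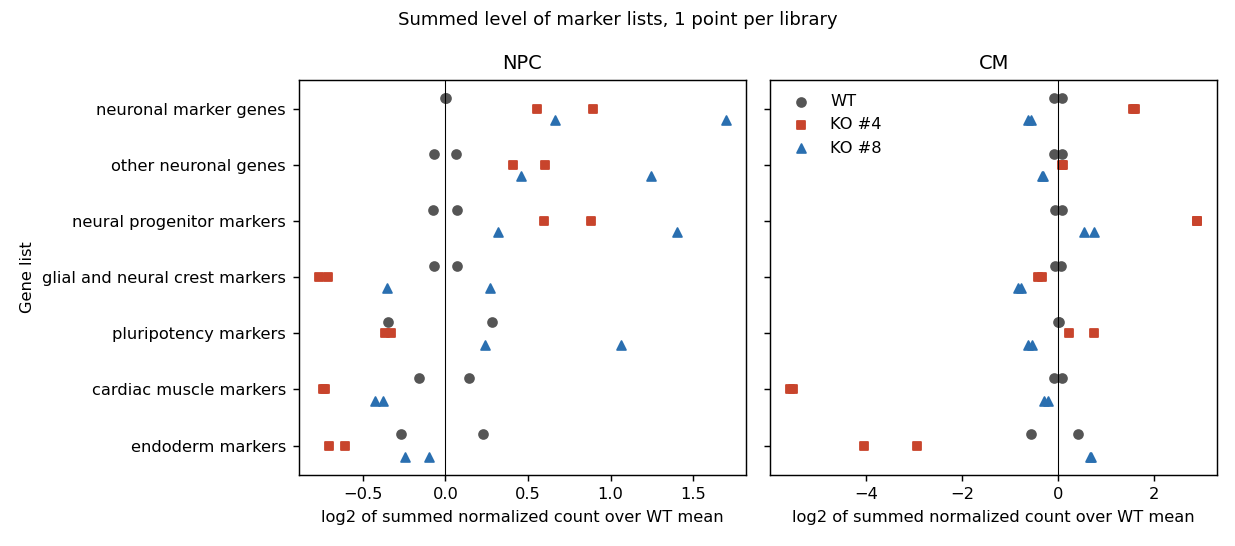
Summed normalized counts of each marker list, as log2 over the WT mean of the stage, with 1 point per library of WT (circles), KO #4 (squares) and KO #8 (triangles) in NPC and CM cultures. In CM cultures the KO #4 points of cardiac muscle and endoderm markers lie far below WT and those of neural progenitor markers and of the neuronal marker genes far above it, and the axes of the 2 panels differ in range.

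The 64 other neuronal genes were divided in CM cultures. Of 42 tested, 18 rose and 9 fell in KO #4, and 4 rose and 16 fell in KO #8. Of all tested genes, 23.8% were called higher and 31.2% lower in KO #4, and 11.3% and 12.8% in KO #8. The median difference of the 42 was 0.60 in KO #4 and -0.19 in KO #8. The sum of the 52 with counts was 8757 to 9814 in WT, 9806 to 9958 in KO #4 and 7316 to 7474 in KO #8. KO #4 thus overlapped WT in this sum. Of the 42, 1 rose and 4 fell in both clones, where 4.85% of all tested genes rose and 6.96% fell in both, so these counts are no result about the list. The 1 that rose was Rtn1, a reticulon of neuronal membranes, by 2.36 ± 0.21 and 1.14 ± 0.21 (limma adjusted p = 5.56e-06 and 0.00314). Of the 4 that fell in both clones, the transcription factors Ebf2, Ebf3 and Ebf1 had the largest changes, at -6.54, -4.42 and -2.50 in KO #4 and -2.56, -2.04 and -2.00 in KO #8. Their WT means were 442, 415 and 430.3 normalized counts, against 4.18, 18.6 and 76.5 in KO #4. Mapt, a microtubule-associated protein, was the fourth. The 3 Ebf factors were thus lower in KO #4, where Tubb3, Map2, Stmn2 and the neurofilament genes were higher.

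In primed cells the differences were small and of both signs. Of 6 genes tested, 2 rose and 1 fell in KO #4, and 1 rose and 1 fell in KO #8, where 19.4% and 14.5% of all 9287 tested genes were called (8.30% higher and 11.1% lower in KO #4, 7.54% and 6.98% in KO #8). Map2 had 192 and 205 normalized counts in WT, 109.9 and 139.5 in KO #4 and 152 and 121 in KO #8. It was lower in every knockout library than in WT and fell by 0.67 ± 0.17 and 0.54 ± 0.17 (limma adjusted p = 0.00336 and 0.0237). Nefl had 686 and 632 in WT, 819 and 797 in KO #4 and 814 and 841 in KO #8, and rose by 0.30 ± 0.08 and 0.33 ± 0.08 (limma adjusted p = 0.00535 and 0.00247). A microtubule gene and a neurofilament gene thus shared a direction between the clones, and that direction was not the same for both genes.

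Gap43 had 189 and 257 normalized counts in the primed WT libraries, 295 and 311 in KO #4 and 255 and 226 in KO #8. It rose in KO #4 by 0.46 ± 0.14 (limma adjusted p = 0.0146), while KO #8 overlapped WT. Elavl3, Elavl4 and Nefm ranged from 158 to 208, from 31.6 to 52.4 and from 13.3 to 26.2 over all 6 libraries and did not pass the test in either clone. Dcx stayed at 0 to 6.16 normalized counts, under the filter of the test. No gene of the 6 differed between the clones (limma, 3.07% of all tested genes), with 1 at an unadjusted p under 0.05 and 0 by limma voom. Without WT library 2, 1 call was left in KO #4 and 0 in KO #8. Without WT library 1 or KO #8 library 2, 1 call was left in KO #8.

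Among the other neuronal genes in primed cells, 34 were tested, of which 5 rose and 7 fell in KO #4 and 4 rose and 4 fell in KO #8. Prph, the intermediate filament peripherin, rose by 1.08 ± 0.13 and 0.99 ± 0.13 (limma adjusted p = 1.39e-08 and 1.55e-07), and L1cam, an axonal adhesion protein, by 0.82 ± 0.19 and 0.76 ± 0.19. Kif5c, a kinesin of axonal transport, rose by 0.42 ± 0.12 and 0.40 ± 0.12. Mapt (-1.44 and -0.87), Chga, a secretory granule protein (-0.53 and -0.37), and Uchl1, a neuronal deubiquitinase (-0.23 and -0.45), fell in both. These 6 were the calls shared by both clones, where 5.01% of all tested genes rose and 4.61% fell in both.

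In naive cells only Elavl4 and Nefm could be tested. Elavl4 had 64.6, 52.0 and 72.1 normalized counts in WT, 78.1, 96.5 and 91.7 in KO #4 and 69.3, 71.4 and 89.3 in KO #8. Every KO #4 library was above every WT library, but the difference of 0.50 ± 0.20 did not pass the threshold (limma adjusted p = 0.0554), and KO #8 overlapped WT at 0.28 ± 0.20. Nefm had 16.4, 9.00 and 34.5 in WT, 10.7, 5.08 and 6.25 in KO #4 and 19.8, 23.8 and 14.7 in KO #8. It fell by 1.19 ± 0.44 in KO #4 (limma adjusted p = 0.0423) although its libraries overlapped those of WT, whose highest was 3.83 times the lowest, and it stood at 0.13 ± 0.44 in KO #8. The call of Nefm was 1 of 2 in KO #4, where 25.3% of all 2824 tested genes were called, 11.9% as lower.

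That call was lost without WT library 1 or 3, KO #4 library 2 or 3, or any 1 of the KO #8 libraries, with values between -0.71 and -1.23. In KO #8, neither gene passed the test (limma, 23.2% of all tested genes), none had an unadjusted p under 0.05 and limma voom called 0. Between the clones neither was called (6.23% of all tested genes), with 1 gene, Nefm, at an unadjusted p under 0.05 and 0 by limma voom, and 1 call appeared without WT library 2, WT library 3 or KO #4 library 1. Of 12 other neuronal genes tested in naive cells, 5 rose and none fell in each clone, and the same 5 genes rose in both. Of these, Prph rose by 1.50 ± 0.21 and 1.46 ± 0.21, Thy1, a surface glycoprotein of neurons, by 1.21 ± 0.21 and 1.52 ± 0.21, and Pou3f2, a neural transcription factor, by 1.28 ± 0.28 and 1.36 ± 0.28. Over all tested genes 9.53% rose in both clones.

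**Figure D4:**
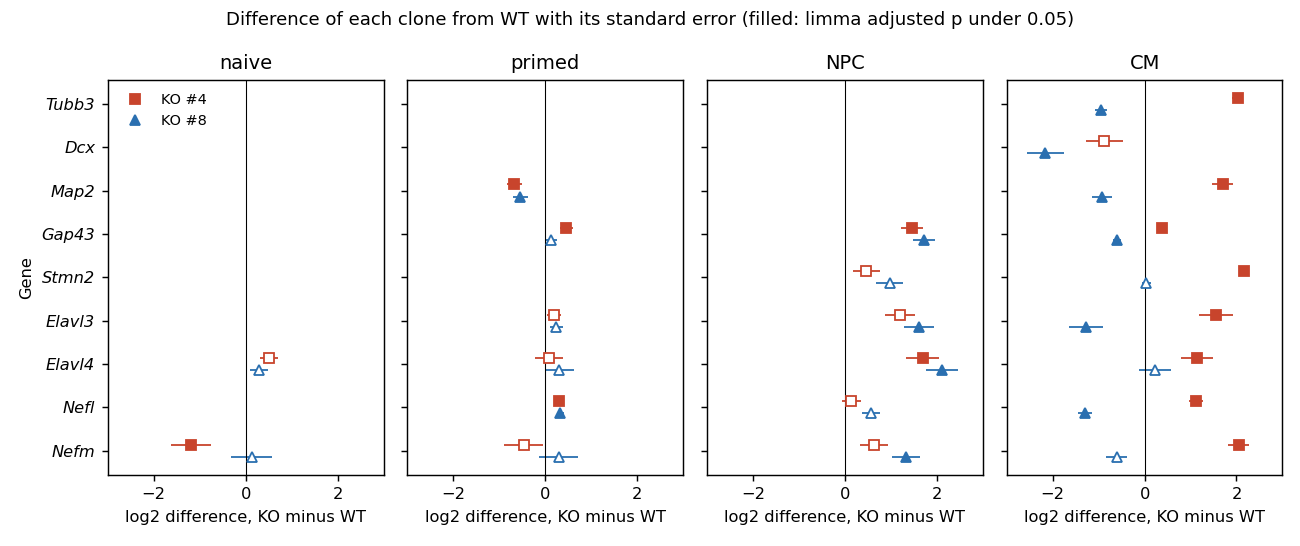
Log2 differences of KO #4 (squares) and KO #8 (triangles) from WT with standard errors as bars, for the tested marker genes at the 4 stages, filled where the limma adjusted p was under 0.05. The points are to the right of 0 for both clones in NPC cultures and on opposite sides for most genes in CM cultures.

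For the genes without counts, the base means of the 2 tables of a stage still fix the difference between the clones, because both tables hold the same WT libraries. They do not fix the difference of a clone from WT. In NPC cultures Tubb3 was higher in KO #8 than in KO #4 by 1339 normalized counts, or at least 1.50-fold, Map2 by at least 1.33-fold, Dcx by at least 1.14-fold and Sox11 by at least 1.08-fold. All 4 had the direction of the 6 genes with counts, and these values carry no spread. None of those 6 was called between the clones, and their direction depended on KO #8 library 2. Without it, Elavl3, Elavl4, Gap43 and Stmn2 stood at -0.23, -0.19, -0.12 and -0.05, and Nefm and Nefl at 0.14 and 0.05. The part of that library in the 4 genes without counts cannot be separated. In CM cultures Sox11, the only gene without counts, was higher in KO #4 by 3645 normalized counts, at least 1.36-fold, as were the 9 others.

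In naive cells the sides were mixed. Gap43 was higher in KO #4 by 229 normalized counts, at least 1.53-fold, and Sox11 at least 1.25-fold, while Elavl3 was higher in KO #8 by 40.2, at least 1.23-fold. Tubb3 (1.02), Stmn2 (1.05), Map2 (1.06) and Nefl (1.02) had least fold differences near 1, as did Tubb3 (1.03), Stmn2 (1.06) and Sox11 (1.01) in primed cells. A least fold is a lower bound that holds for any WT level, and the true ratio may be larger.

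Elavl4 and Nefm were the only genes with counts above 0 at all 4 stages. In WT cells Elavl4 had 1.74 ± 0.28 RPM in naive cells (SD, n = 3), 2.14 ± 0.25 in primed cells, 6.18 ± 0.33 in NPC and 1.39 ± 0.28 in CM cultures (n = 2 each). Nefm had 0.553 ± 0.363, 1.21 ± 0.16, 14.5 ± 1.4 and 4.67 ± 0.45. Both were highest in NPC cultures, and the naive, primed and CM levels of Elavl4 lay close to each other. In KO #8, Elavl4 was 29.4 ± 16.6 and Nefm 39.5 ± 20.4 in NPC cultures, against 1.64 ± 0.40 and 3.09 ± 0.92 in CM cultures. The stages were normalized separately, so these levels are descriptions and no test was made between stages.

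**Figure D5:**
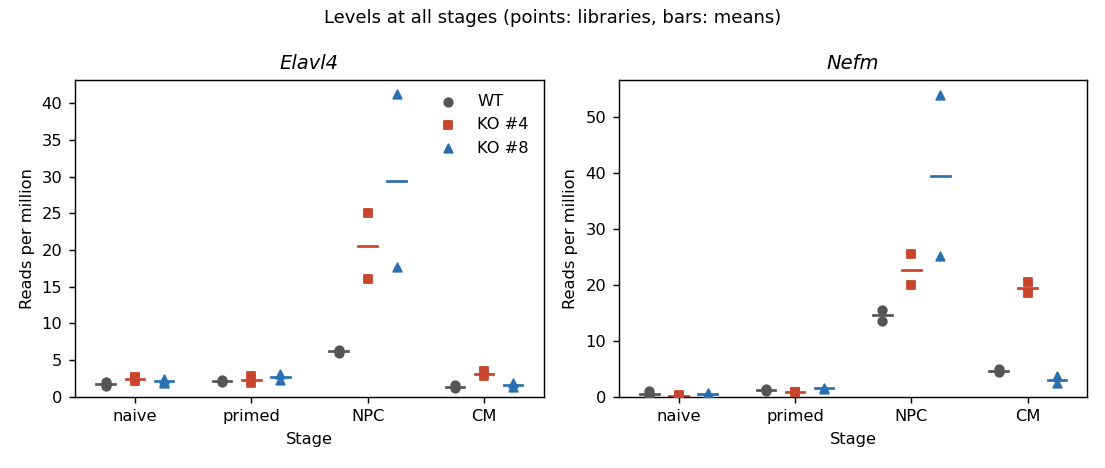
Level in RPM (reads per megaread) of Elavl4 (left) and Nefm (right) in every library of WT (circles), KO #4 (squares) and KO #8 (triangles) at the 4 stages, with a bar at each group mean. Both genes are highest in NPC cultures, where the KO #8 libraries lie furthest apart, and Nefm in CM cultures is high in KO #4 alone.

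The differences of the clones from WT, averaged over the clones, were also compared between stages. Elavl4 changed more in NPC cultures than in naive cells, by 1.51 ± 0.36 on the log2 scale (limma adjusted p = 0.0209), and Nefm by 1.51 ± 0.57 without passing the test (0.116), where 9.11% of 3744 tested genes were called. Between CM and NPC cultures, Gap43 changed by -1.69 ± 0.23 (limma adjusted p = 0.000152) and Elavl3 by -1.27 ± 0.42 (0.0448), while Stmn2, Elavl4, Nefl and Nefm, at 0.38, -1.21, -0.44 and -0.26, did not pass the test, and 20.2% of 9245 tested genes were called. In CM cultures this average is taken over clones that moved in opposite directions. The call of Elavl4 in the first comparison was lost without NPC WT library 1, NPC WT library 2 or NPC KO #4 library 2, at 1.35 to 1.56. The call of Elavl3 was lost in 9 of 12 fits that each left out 1 library, those without a WT or KO #4 library of either stage or without CM KO #8 library 1.

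The log2 levels of genes (RPM + 0.5, centred on each gene's mean) were compared over the 12 group means of the 4 stages. Among 3697 genes with counts throughout, those most like the mean of Elavl4 and Nefm were Nell2 (Pearson r = 0.993), Ptpn5 (0.99), Pou3f4 (0.989), Tmem178b (0.987) and Rbfox3 (0.987). The groups share libraries' depth and the WT and clone background of each stage, so these values describe the likeness only. Elavl4 and Nefm had r = 0.765 with each other. Nell2, for example, stood at 0.219 RPM in naive WT cells, 10.7 in NPC WT, 26.6 in NPC KO #4 and 40.8 in NPC KO #8, and at 1.55, 10.9 and 0.915 in CM cultures of WT, KO #4 and KO #8. Ptpn5 was near the floor in naive and primed cells, at 0 to 0.0826 RPM, under the 0.5 RPM added. The other genes named were also under 0.5 RPM in all naive groups, and Tmem178b and Rbfox3 in all primed groups too.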

How the data were processed

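Per the labels and the methods of the study, the authors trimmed the reads with Trim Galore (0.6.7), aligned them to mm9 with HISAT2 (2.2), counted them with featureCounts and ran DESeq2 (1.46.0). The 8 deposited tables of 25209 genes hold the base mean, a signal that the authors computed as the average of normalized counts over WT and 1 clone, and 5 columns of their comparison (log2 fold change, its standard error, Wald statistic, p-value and adjusted p-value), which were not used. Genes with a single read show each library's size factor, and WT libraries enter both tables of a stage. Whole counts per library were therefore solved from the base means (10 significant digits). Libraries in both tables are WT, and the others belong to the clone of their table. A solution was accepted when it held at least 0.95 of the weight for base means up to 1000 (100 in naive cells), or 0.99 among at most 50 solutions up to 1600. The procedure and the fit were tested on simulated data.

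Each stage was fitted with limma (3.58.1, trend) over its 3 genotypes, on log2(normalized count + 1) of genes with a mean of at least 10, with Benjamini-Hochberg adjustment over all tested genes and a threshold of 0.05. Named other neuronal genes are up to 3 per stage and direction called in both clones, with the largest smaller change. The genes and lists were chosen with earlier results of these data known. Alternatives were other filters, pseudocounts, scalings, tests and left-out libraries. The 2 or 3 libraries per group limit the precision, so a difference that did not pass the test may still be present. Python 3.11.15 and R 4.3.3 were used.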

Additional observations from a re-analysis of the deposited data

Results flagged for a closer look

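In CM cultures the difference from WT was not the same in the 2 clones for any of the 9 genes with counts. The limma test of KO #8 minus KO #4 gave log2 differences of -2.97 for Tubb3 (adjusted p = 3.4e-08), -2.62 for Map2 (3.63e-06), -1.28 for Dcx (0.0192), -2.13 for Stmn2 (4.87e-08) and -0.99 for Gap43 (3.98e-06). For the RNA-binding proteins it gave -2.84 for Elavl3 (limma adjusted p = 8.96e-05) and -0.91 for Elavl4 (0.0492), and for the neurofilament chains -2.42 for Nefl (5.06e-07) and -2.66 for Nefm (4.95e-06). The p-values of Tubb3, Stmn2 and Gap43 depend in part on the choice among several solutions. Of all genes tested at this stage 54.0% were called in the same comparison. Cardiac muscle, endoderm, mesenchyme, neural progenitor and pluripotency markers differed between the same libraries, and their part in the differences was not tested.

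The change against WT also differed between stages for 3 genes. It was larger in NPC cultures than in naive cells for Elavl4 by 1.51 (limma adjusted p = 0.0209), and lower in CM than in NPC cultures for Gap43 by -1.69 (0.000152) and Elavl3 by -1.27 (0.0448).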

How the results depend on the processing

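No paired analysis was possible because the libraries solved from the tables carry no replicate number of the labels. Leaving out each library in turn, the number of marker genes called ranged from 0 to 1 for KO #4 and for KO #8 against KO #4 in naive cells, 1 to 3 for KO #4 and 0 to 2 for KO #8 in primed cells, 0 to 5 for KO #4, 0 to 6 for KO #8 and 0 to 6 between the clones in NPC cultures, 7 to 8, 4 to 7 and 7 to 9 in CM cultures, 0 to 2 for NPC minus naive and 1 to 4 for CM minus NPC. In such fits of primed, NPC or CM cultures 1 group held 1 library, and the calls over all tested genes changed as well. At an adjusted p under 0.01 the calls were 0 for naive KO #4, 1 for primed KO #8 and 1 and 2 for NPC KO #4 and KO #8. They were 0 for NPC minus naive and 1 for CM minus NPC. Gap43 in primed KO #4 (limma adjusted p = 0.0146) and Elavl4 in CM KO #4 (0.0184) lost their calls there too. So did Map2 (0.0131) and Elavl3 (0.0297) in CM KO #8, and Dcx (0.0192) and Elavl4 (0.0492) between the CM clones. For the other settings only the larger changes are listed. Without a filter on low counts the calls were 0, 1 and 1 for naive KO #4, primed KO #8 and CM minus NPC. With limma voom they were 0 for naive KO #4, 0 and 1 for NPC KO #4 and KO #8, 0 for NPC minus naive and 1 for CM minus NPC. Size factors by the median of ratios gave 2 for naive KO #4, and a fit of only the 2 groups gave 0 for naive KO #4 and 5 for NPC KO #4. With only genes of exactly 1 solution, chosen after seeing the data, they were 5 for CM KO #4, 5 between the CM clones and 0 for both stage differences. The causes were not tested, except that fewer genes or libraries enter some of these fits. Leaving out genes above the level limit, also chosen after seeing the data, kept every count within 1.5 times. The share of calls that were higher in naive KO #8 over all genes was 69.0%, and 59.0% with the median of ratios, and it was 80.7% and 66.9% for KO #8 against KO #4, whose median difference over all genes was 0.105 and 0.00381 in these fits.

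Sign changes occurred only in fits that left out 1 library, for differences that had not been called. They ranged from -0.31 to 0.61 for Nefm in naive KO #8, -0.22 to 0.38 for Elavl4 in primed KO #4 and -0.10 to 0.34 for Gap43 in primed KO #8. Between the clones they ranged from -0.0396 to 0.301 for Map2 and -0.0736 to 0.523 for Elavl4 in primed cells, and from -0.23 to 1.06 for Elavl3, -0.19 to 1.02 for Elavl4, -0.12 to 0.65 for Gap43 and -0.0523 to 1.06 for Stmn2 in NPC cultures. In CM KO #8 they ranged from -0.11 to 0.18 for Stmn2 and -0.0104 to 0.472 for Elavl4, and for CM minus NPC from -0.535 to 0.0166 for Nefm.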
